A study of Canis lupus familiaris with 45 samples.

Results

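The genes described here are IDH3A, IDH3B, SUCLA2, PDHB and PDK4, taken as the TCA cycle enzymes and the control of pyruvate dehydrogenase in the failing dog heart. They were chosen by symbol, and every probe set annotated to one of these symbols alone was taken. This gave 9 of the 23836 probe sets kept on the array, and 5 of the 6540 genes that the array names: 4 probe sets for IDH3A, 2 for IDH3B and 1 each for SUCLA2, PDHB and PDK4. The members were picked with their differences between paced and unpaced dogs already known, so those differences are given below as a description, with standard errors and intervals but no p.

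Pyruvate dehydrogenase is the mitochondrial complex that turns pyruvate into acetyl-CoA and so admits carbohydrate carbon to the TCA cycle. The cycle oxidises that acetyl group, and the acetyl groups made from fatty acids, and passes the electrons to the respiratory chain. Pyruvate dehydrogenase kinases switch the complex off by phosphorylating its E1 alpha subunit, and phosphatases switch it on again. In the heart, which takes most of its energy from fatty acids, PDK4 is the kinase known for following fasting and fatty acid supply.

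The 15 male, age-matched dogs formed 5 groups of 3. Day-0 dogs were not paced. The other 12 carried a pacemaker that drove the right ventricle at 240 pulses per minute, begun shortly after surgery, and were studied at Day-3, Week-1, Week-2 or End-stage, the last after 3 to 4 weeks and judged on haemodynamic measurements. Each group was a separate set of dogs, so no dog was followed over time, and the labels used here do not say whether the Day-0 dogs had the same operation, nor do they give the feeding state of any dog. Tissue spanned the whole wall of the left ventricle, RNA was prepared 3 times from each heart, and every preparation had its own array, 45 in all. The dog was the replicate, and its value was the mean log2 signal of its 3 arrays.

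The deposited signals had one scale on all arrays, with a trimmed mean between 150.02 and 150.026 and a median between 33.3 and 48.6. All 11 cardiomyocyte markers measured were bright (TNNT2, a sarcomere troponin, had a mean log2 signal of 13.32 and MYH7, the slow myosin heavy chain, 13.51). The arrays of dog 1 of Week-1 and dog 1 of End-stage did not group by dog: judged on probe sets that separate dogs, 4 of these 6 arrays lay closest to one of the other dog, against 0 of the other 39. These arrays were kept under their labels, and Week-1 and End-stage values of the members are also given without both dogs.

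IDH3A encodes the catalytic alpha subunit of the NAD-dependent isocitrate dehydrogenase, the enzyme that makes alpha-ketoglutarate in the cycle. The gene lies at chr3:58823194-58840363 in the dog assembly UU_Cfam_GSD_1.0. Its brightest probe set, 1586239_s_at, gave log2 signals of 11.22, 11.53 and 11.58 in the Day-0 dogs. The Day-3 dogs had 10.88, 10.61 and 10.72. All 3 Day-3 dogs lay below every Day-0 dog, and this was the lowest group. The Week-1 dogs had 10.94, 10.94 and 11.16, and the Week-2 dogs 11.02, 11.10 and 11.06. The End-stage dogs had 10.88, 11.00 and 11.24. Of the 12 paced dogs, 11 lay below every Day-0 dog; the exception, End-stage dog 3 at 11.24, stood just above the lowest Day-0 dog at 11.22.

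IDH3A therefore averaged 10.74 ± 0.14 at Day-3, against 11.44 ± 0.19 at Day-0 (SD, n = 3 each), a difference of -0.71 on the log2 scale (SE 0.13), or 1.63-fold lower. At Week-1 the difference was -0.43, at Week-2 -0.38 and at End-stage -0.40, each with SE 0.13, which is 1.35-fold, 1.30-fold and 1.32-fold lower than Day-0. As a description, the gap between Day-0 and the next highest group, Week-2, was 0.38, and the pooled SD between dogs was 0.15. Week-1, Week-2 and End-stage means lay within 0.05 of each other and within that SD. Week-1 exceeded Day-3 by 0.27, more than that SD, but this difference did not pass in limma (unadjusted p = 0.053, adjusted p = 0.994). Without the dogs numbered 1 of Week-1 and End-stage the Week-1 difference from Day-0 was -0.40 and the End-stage difference -0.32.

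The other IDH3A probe sets bear on how far a single probe set can be trusted. Those named 1584098_at and 1591647_at followed the brightest one: 1584098_at lay -0.71 from Day-0 at Day-3 and between -0.47 and -0.36 at the later stages (SE 0.16), and 1591647_at lay -0.77 at Day-3 and between -0.63 and -0.44 later (SE 0.22). In both, 11 of 12 paced dogs lay below every Day-0 dog, and the exception was again End-stage dog 3. For 1591647_at the End-stage difference rested on single dogs, at -0.95 without End-stage dog 3 and -0.38 without End-stage dog 2. The fourth and dimmest probe set, 1600219_at (mean log2 signal 7.10), did not follow: its differences were -0.36, -0.07, -0.50 and -0.10 (SE 0.30), and 5 of 12 paced dogs lay below Day-0. Without Day-0 dog 2 they were -0.10, 0.19, -0.23 and 0.16. Without both dogs whose arrays did not group, the Week-1 and End-stage differences were -0.31 and -0.30 for 1584098_at, -0.59 and -0.57 for 1591647_at, and 0.11 and -0.01 for 1600219_at. Over the 15 dogs the 3 brighter probe sets correlated with each other at a Pearson r of 0.80 to 0.90, and with 1600219_at at 0.13 to 0.29. These probe sets share the arrays and their scaling, so the correlations are a description.

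IDH3B encodes the beta subunit of the same isocitrate dehydrogenase and lies at chr24:19009851-19014767. The brighter of its probe sets, 1583193_s_at, read 11.96, 12.22 and 12.15 in the Day-0 dogs. It read 11.66, 11.57 and 11.77 in the Day-3 dogs. It read 11.67, 11.87 and 11.86 at Week-1, 11.68, 11.83 and 11.87 at Week-2, and 11.68, 11.80 and 11.83 at End-stage. All 12 paced dogs were below the 3 Day-0 dogs, the highest paced dog at 11.87 and the lowest Day-0 dog at 11.96. The differences from Day-0 were -0.44, -0.31, -0.32 and -0.34 at the 4 stages in order (SE 0.11), or 1.36-fold, 1.24-fold, 1.24-fold and 1.27-fold lower. Without the 2 dogs whose arrays did not group, the Week-1 and End-stage differences were -0.25 and -0.30.

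The second IDH3B probe set, 1584935_at, had a mean log2 signal of 7.61 and showed little of this: its differences lay between -0.18 and -0.10 (SE 0.12), 8 of 12 paced dogs were below Day-0, and it correlated with 1583193_s_at at an r of 0.40. Without both dogs whose arrays did not group, its Week-1 and End-stage differences were -0.10 and -0.11. Without Day-0 dog 1 its Day-3, Week-2 and End-stage differences were -0.05 each. The array annotation gives this probe set the symbol but no accession, so that its target could not be checked here. The third subunit of the enzyme, the regulatory gamma subunit encoded by IDH3G, had differences of -0.28, -0.30, -0.21 and -0.27 at the 4 stages, with limma adjusted p between 0.455 and 0.577. All 5 of its probe sets were lower in the mean of the paced groups. By contrast IDH2, the NADP-dependent mitochondrial isocitrate dehydrogenase, differed from Day-0 by 0.00, -0.08, 0.07 and 0.15, and its second probe set by -0.03, -0.01, 0.11 and 0.18.

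SUCLA2 encodes the beta subunit of the ADP-forming succinyl-CoA ligase, the step of the cycle that yields a nucleoside triphosphate directly, and lies at chr22:3405868-3449226. The Day-0 dogs stood close together at 10.08, 10.13 and 10.15. The Day-3 dogs had 9.91, 9.51 and 9.67 and the Week-1 dogs 9.57, 9.58 and 9.42. The Week-2 dogs had 9.51, 9.27 and 9.86, and the End-stage dogs 9.47, 9.19 and 10.00. All 12 paced dogs lay below every Day-0 dog. The dogs spread more widely late in pacing, with an SD of 0.41 at End-stage and 0.30 at Week-2, against 0.04 at Day-0, and End-stage dog 3 at 10.00 came within 0.08 of the lowest Day-0 dog.

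SUCLA2 was 1.34-fold lower at Day-3 (log2 -0.42), 1.51-fold at Week-1 (-0.60), 1.49-fold at Week-2 (-0.57) and 1.48-fold at End-stage (-0.57), each with SE 0.19. Its 95% interval at Day-3, -0.82 to -0.02, reached almost to 0. Without both dogs whose arrays did not group, the Week-1 difference was -0.62 and the End-stage difference -0.53. The partner genes of the ligase had smaller differences or differences of the other sign. SUCLG1, the alpha subunit common to both forms of the ligase, lay -0.28, -0.16, -0.18 and -0.25 from Day-0. SUCLG2, the beta subunit of the GDP-forming form, lay -0.11, 0.31, 0.14 and 0.26 from Day-0 at the 4 stages (adjusted p between 0.433 and 0.922). Its dogs read 9.38, 9.51 and 9.27 at Day-0, 9.68, 9.73 and 9.69 at Week-1, and 9.77, 9.64 and 9.52 at End-stage, so every Week-1 and End-stage dog lay above every Day-0 dog, as in 6.73% and 6.33% of all probe sets tested. The second SUCLG2 probe set gave -0.18, 0.19, 0.05 and -0.06, and the difference between SUCLA2 and SUCLG2 was not tested.

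PDHB encodes the beta subunit of E1, the decarboxylating enzyme of pyruvate dehydrogenase, and lies at chr20:32438275-32444406. The Day-0 dogs had 11.31, 11.49 and 11.37. The Day-3 dogs had 11.09, 10.97 and 11.06, the Week-1 dogs 11.08, 11.03 and 11.02, the Week-2 dogs 11.02, 10.89 and 11.00, and the End-stage dogs 11.01, 10.86 and 11.11. All 12 paced dogs lay below every Day-0 dog, the highest of them at 11.11 and the lowest Day-0 dog at 11.31. Its differences from Day-0 were -0.35 at Day-3 and Week-1, -0.42 at Week-2 and -0.40 at End-stage (SE 0.10), or 1.27-fold, 1.28-fold, 1.34-fold and 1.32-fold lower. It was also the steadiest of the 9 probe sets: the SD of its dog means was 0.081 and that between isolations of one heart 0.068, where the medians over all tested probe sets were 0.268 and 0.307. Without the 2 dogs the Week-1 and End-stage differences were -0.37 and -0.41.

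**Figure D1:**
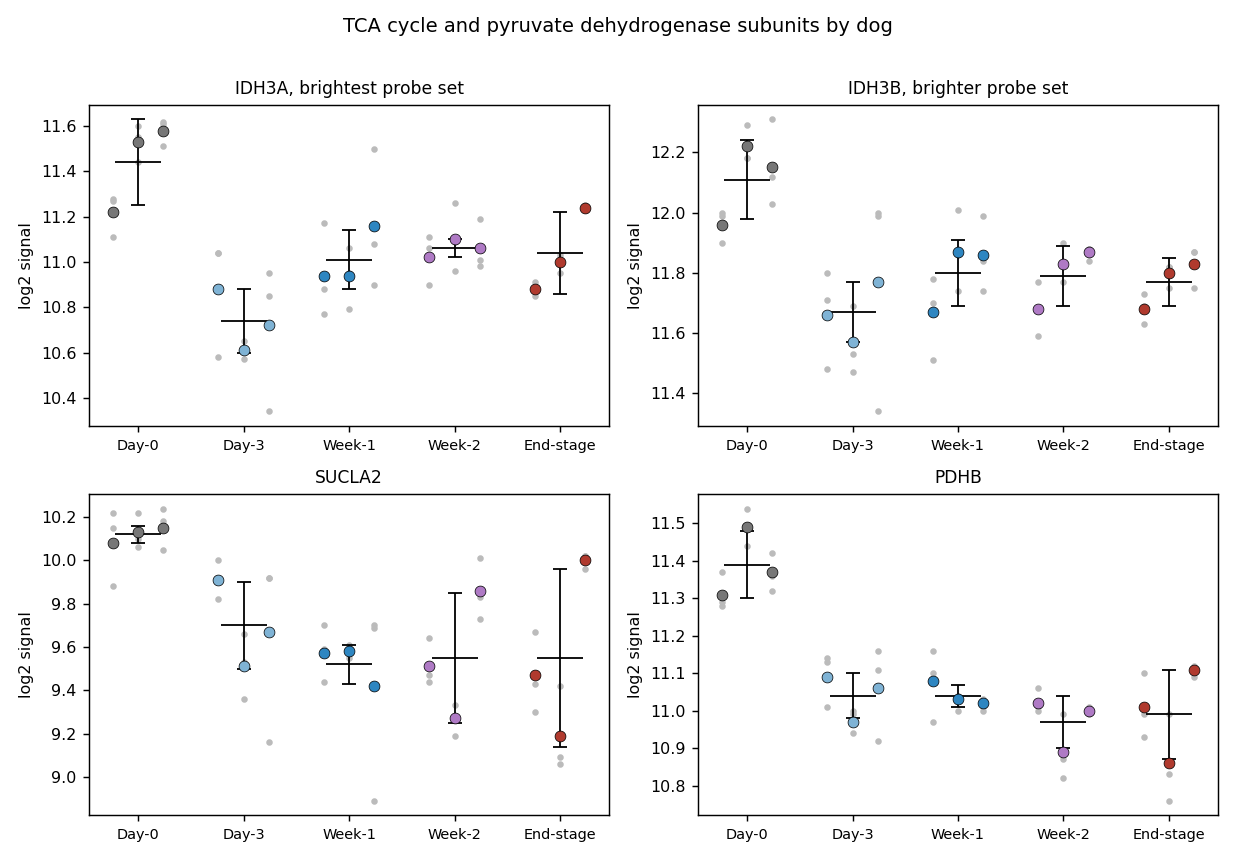
Log2 array signal (y axis) of IDH3A, IDH3B, SUCLA2 and PDHB in the 5 groups (x axis), with each coloured point 1 dog, small grey points its 3 RNA isolations, and bars the group mean ± SD of 3 dogs. IDH3A and IDH3B are shown by their brightest probe sets. In the panels of IDH3B, SUCLA2 and PDHB all 12 paced dogs sit below the Day-0 dogs, as in 1.61% of all probe sets tested. In the IDH3A panel 11 of 12 do. In the dimmest IDH3A probe set and the second IDH3B one, not shown, 5 and 8 of 12 do. The y axes differ between panels and do not start at 0.

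PDK4, at chr14:20785483-20798897, behaved otherwise. Its Day-0 dogs had log2 signals of 10.69, 11.36 and 11.46. The Day-3 dogs had 9.52, 11.95 and 12.23, so that the lowest and the highest of the 15 dogs were both Day-3 dogs. The Week-1 dogs had 11.69, 10.92 and 11.17, the Week-2 dogs 11.43, 11.78 and 12.22, and the End-stage dogs 11.67, 12.00 and 11.53. Against the Day-0 range, 8 of the 12 paced dogs lay above, 1 below and 3 inside. Only at End-stage did the groups not overlap, with all 3 dogs above every Day-0 dog.

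PDK4 averaged 11.23 ± 1.49 at Day-3, 11.26 ± 0.39 at Week-1, 11.81 ± 0.40 at Week-2 and 11.73 ± 0.24 at End-stage, against 11.17 ± 0.42 at Day-0 (SD, n = 3 each). The differences were 0.07, 0.09, 0.64 and 0.56 (SE 0.51), and the 95% intervals, such as -0.44 to 1.73 at Week-2 and -0.52 to 1.65 at End-stage, included 0 at every stage. Without Day-0 dog 1 the Week-2 difference was 0.40 and the End-stage difference 0.33. No 2 neighbouring groups in the order of means differed beyond the pooled SD between dogs of 0.74. That SD and the SE pool all groups, and the Day-3 dogs (SD 1.49) gave most of both. The SD in each other group was between 0.24 and 0.42. The Day-3 value depended on which dogs were counted: it was 0.92 without Day-3 dog 1 and -0.43 without Day-3 dog 3. The Week-1 value was -0.12 without Week-1 dog 1. Without both dogs whose arrays did not group, the Week-1 value was again -0.12 and the End-stage value 0.60.

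This spread lay between dogs and not between RNA preparations. The 3 isolations of Day-3 dog 1 read 9.60, 9.44 and 9.53, and those of Day-3 dog 3 read 12.22, 12.12 and 12.36. Over all dogs isolations had an SD of 0.132 and dogs within a group one of 0.739, which placed PDK4 at the 98.6th percentile of tested probe sets for variation between dogs. The value of 0.739 also rested mostly on the Day-3 dogs.

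**Figure D2:**
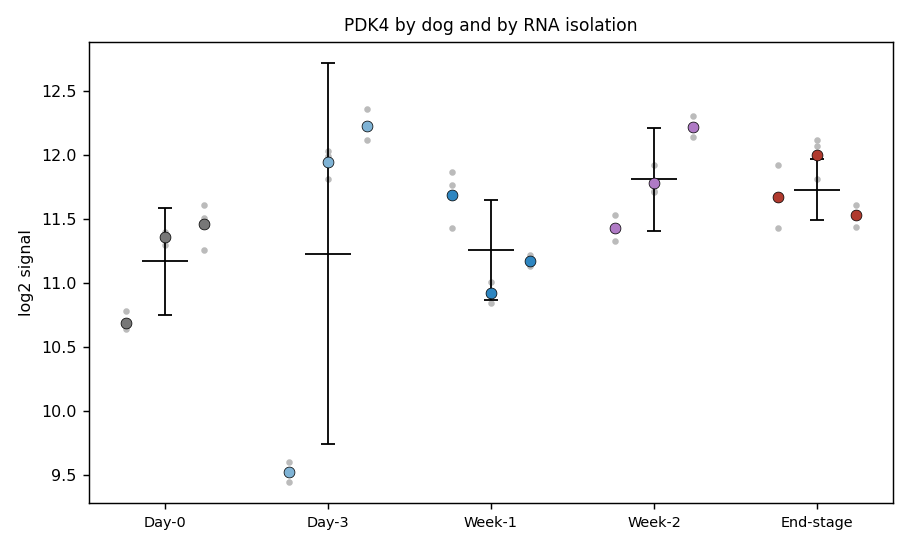
Log2 array signal of PDK4 (y axis) in the 5 groups (x axis), with each coloured point 1 dog, small grey points its 3 RNA isolations, and bars the group mean ± SD of 3 dogs. Isolations of a dog lie together while the Day-3 dogs run between 9.52 and 12.23; the y axis does not start at 0.

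Set side by side, 8 of the 9 probe sets were lower than Day-0 at each of the 4 stages, and PDK4 was the one that was not. Among all 14302 probe sets tested, the share with a difference below 0 was 49.2% at Day-3, 54.6% at Week-1, 50.8% at Week-2, 54.3% at End-stage and 52.8% for the mean of the 4 paced groups, in which again 8 of the 9 were lower. The 3 paced dogs were wholly below the 3 Day-0 dogs in 6 of the 9 probe sets at Day-3 (background 6.44%), 7 at Week-1 (9.4%), 6 at Week-2 (9.21%) and 3 at End-stage (7.94%), and PDK4 alone lay above at End-stage (6.33%), while 0 of 9 lay wholly above at Day-3 (6.16%), Week-1 (6.73%), Week-2 (8.08%) or over all 12 paced dogs (0.909%). In 3 of the 9, the probe sets of IDH3B, SUCLA2 and PDHB described above, all 12 paced dogs lay below Day-0 (1.61%). Because these contrasts chose the members, nothing is read from these shares. All 4 contrasts use the same 3 Day-0 dogs.

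The limma fit passed few probe sets anywhere at an adjusted p of 0.05: 0% at Day-3, 0.028% at Week-1, 0.0839% at Week-2, 0.014% at End-stage and 0.301% for the mean of the 4 paced groups. At an unadjusted p under 0.05 it took 1154, 1287, 1597, 1177 and 1672 probe sets in the same order. The 9 probe sets were not among those that passed, 0 of 9 in each contrast, and nothing is read from this count, since the same contrasts chose them. For that mean, IDH3A (1586239_s_at) lay 1.39-fold below Day-0 (log2 -0.48, SE 0.10), IDH3B (1583193_s_at) 1.28-fold (-0.35, SE 0.09), SUCLA2 1.45-fold (-0.54, SE 0.15) and PDHB 1.30-fold (-0.38, SE 0.08), while PDK4 lay 1.27-fold above (0.34, SE 0.40). The PDK4 value was 0.10 without Day-0 dog 1 and 0.55 without Day-3 dog 1.

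**Figure D3:**
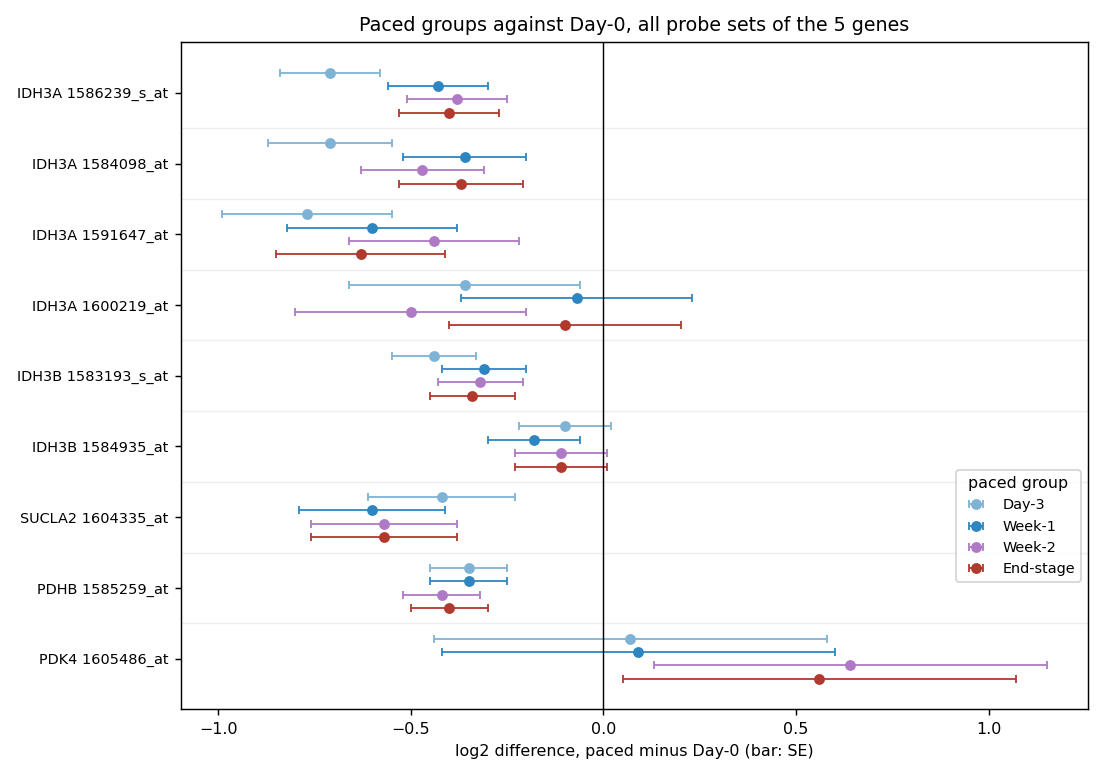
Log2 difference from Day-0 (x axis, paced minus Day-0, bars are the SE of the fit) of the 9 probe sets (rows) in the 4 paced groups (colours, n = 3 dogs each). The brighter probe sets of IDH3A and IDH3B, with SUCLA2 and PDHB, lie to the left of 0 at all stages, the dimmest IDH3A probe set runs between -0.50 and -0.07, the second IDH3B one lies between -0.18 and -0.10, and PDK4 lies to the right with the widest bars.

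Between one paced stage and the one before, the design allows a test that holds no Day-0 dog, although it shares the paced dogs with the contrasts that chose the members. The 9 differences lay between -0.17 and 0.36 for Week-1 against Day-3, between -0.43 and 0.55 for Week-2 against Week-1, and between -0.20 and 0.40 for End-stage against Week-2. None of the 9 passed in limma, the smallest adjusted p being 0.994, 0.889 and 0.999 in that order, where 0% of all probe sets passed in each. At an unadjusted p under 0.05 there was 1 of 9 for Week-1 against Day-3 and 0 of 9 for the other contrasts, where 689, 826 and 600 of all 14302 probe sets had one. That one was IDH3A (1584098_at), 0.36 higher at Week-1 than at Day-3 (SE 0.16, unadjusted p = 0.0435, limma adjusted p = 0.994), and its 95% interval ran from 0.01 to 0.70. The brightest IDH3A probe set was 0.27 higher at Week-1 than at Day-3 (SE 0.13, limma adjusted p = 0.994).

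For PDHB the intervals of all 3 consecutive differences lay between -0.28 and 0.24. For PDK4 the Week-2 mean exceeded Week-1 by 0.55 (SE 0.51, interval -0.54 to 1.64, limma adjusted p = 0.913). An F test for any difference among the 4 paced groups gave an adjusted p of 1 for all 9 probe sets and an unadjusted p under 0.05 for 0 of 9. Over all probe sets it passed 0%, and 599 had an unadjusted p under 0.05.

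The rest of the TCA cycle was read from a list of 18 enzyme genes. Of these, 14 are reported here, 3 of them members. Each gene is represented by its brightest probe set. Of the 11 other genes 0 passed the threshold, with a smallest limma adjusted p of 0.248 at a single stage (SDHD at Week-2) and 0.163 for the mean of the 4 paced groups, while 5, 5, 2 and 4 had an unadjusted p under 0.05 at the 4 stages in order. Their median log2 difference from Day-0 was -0.28 at Day-3, -0.29 at Week-1, -0.22 at Week-2 and -0.27 at End-stage, where the median of all tested probe sets was 0.00, -0.03, -0.01 and -0.02. In number, 11, 10, 9 and 9 of the 11 were lower than Day-0, which like the members were listed with earlier results of these data known.

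By enzyme, the alpha-ketoglutarate dehydrogenase complex was lower in all 3 of its subunits. OGDH, its E1, lay -0.48, -0.83, -0.58 and -0.63 from Day-0 but varied widely between dogs, with an SD of 1.28 at Week-2 and 1.03 at End-stage, against 0.13 at Day-0. DLST, its E2, lay between -0.37 and -0.26, and its second probe set between -0.71 and -0.55. DLD, the E3 subunit it shares with pyruvate dehydrogenase, lay between -0.32 and -0.18. Succinate dehydrogenase, the cycle enzyme that is also complex II of the respiratory chain, was lower in its iron-sulphur subunit SDHB (between -0.33 and -0.31) and in both membrane anchors, SDHC (between -0.38 and -0.22) and SDHD (between -0.35 and -0.28). All 12 paced dogs lay below every Day-0 dog for SDHD, as in 1.61% of all probe sets tested. FH, the fumarase, had the smallest lower differences of these, between -0.21 and -0.08.

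Of the 14 genes listed for the pyruvate dehydrogenase complex and its control, DLAT, PDK3, PDP2 and PDPR had no probe set with their symbol alone and 10 were measured. The 8 that are not members were all lower than Day-0 at each stage, with medians of -0.28, -0.23, -0.30 and -0.34, and 0 passed the threshold (smallest limma adjusted p 0.298 at a single stage, for PDK2 at End-stage, and 0.163 for the paced mean). At an unadjusted p under 0.05 there were 1, 2, 1 and 2. PDHA1, the E1 alpha subunit that the kinases phosphorylate, lay -0.32, -0.27, -0.33 and -0.25 from Day-0. PDHX, which holds the E3 subunit in the complex, lay -0.14, -0.09, 0.00 and -0.37. MPC1 and MPC2, which form the carrier that brings pyruvate into mitochondria, lay between -0.15 and -0.07 and between -0.36 and -0.24.

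Values of the other kinases measured are set beside those of PDK4. PDK2 lay -0.28, -0.38, -0.34 and -0.46 from Day-0 at the 4 stages (limma adjusted p between 0.298 and 0.646). Its dogs read 11.45, 11.49 and 10.99 at Day-3 and 11.22, 11.16 and 11.01 at End-stage, against 11.49, 11.51 and 11.78 at Day-0. Before rounding all 12 paced dogs were below every Day-0 dog, as in 1.61% of all probe sets tested. PDK1 lay -0.27, -0.18, -0.03 and -0.39, and its second probe set -0.31, -0.27, 0.11 and -0.37. PDP1, the phosphatase that reactivates the complex, lay between -0.74 and -0.61 at a dim mean log2 signal of 5.40. These differences were near their SE of 0.67 (limma adjusted p between 0.791 and 0.906), and dogs overlapped Day-0 at every stage. Of the 23 genes measured on these lists, 11 had more than 1 tested probe set, and in 8 of these every probe set was lower in the mean of the paced groups. SUCLG1 was the one gene whose probe sets differed in sign, its dimmest at 0.03 and the others at -0.22 and -0.19.

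**Figure D4:**
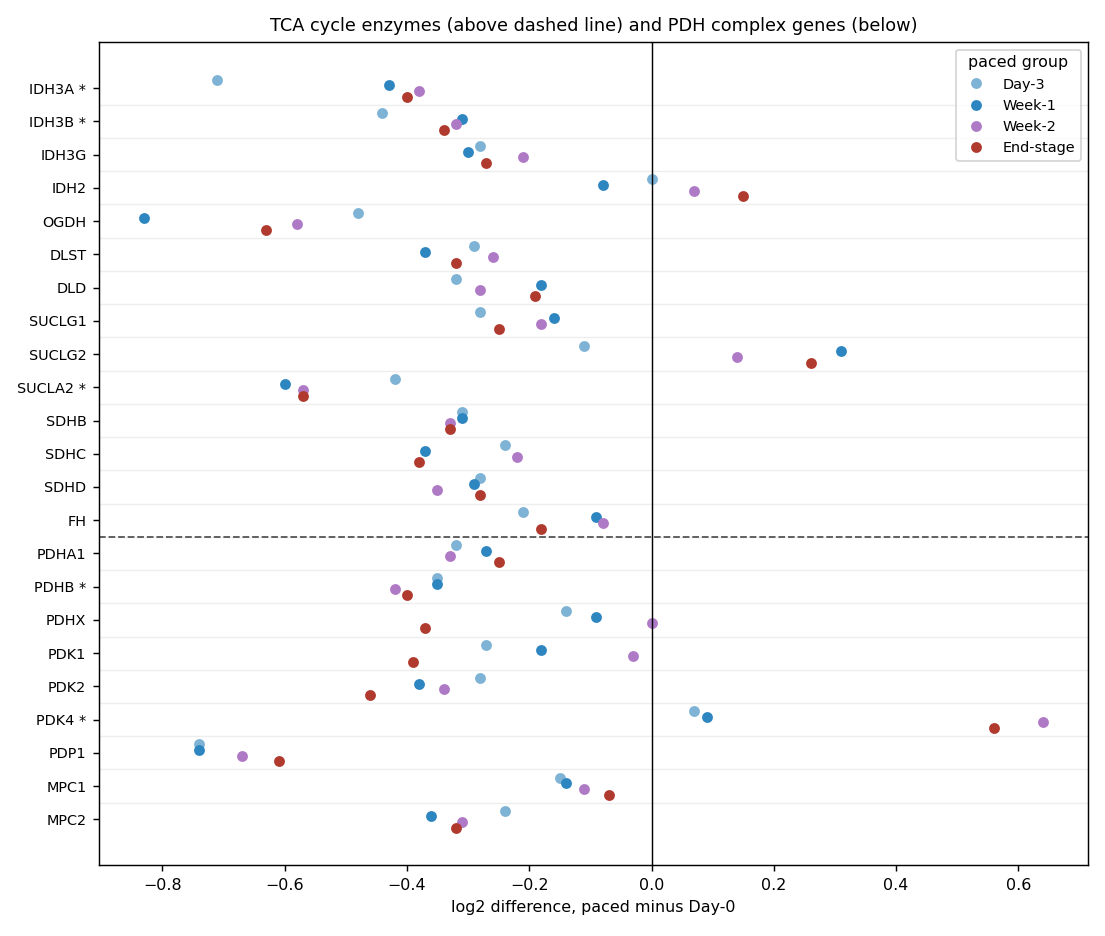
Log2 difference from Day-0 (x axis, paced minus Day-0) of the 14 measured TCA cycle genes and the 9 further genes of the pyruvate dehydrogenase list (rows) at the 4 stages (colours), each the mean of 3 dogs minus the mean of 3 Day-0 dogs; asterisks mark the 5 genes described first. Most points lie left of 0, and the exceptions are PDK4, SUCLG2 after Day-3 and IDH2 at Week-2 and End-stage.

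Genes that feed or regulate the cycle were read from 4 further lists. The 11 measured genes of anaplerosis and metabolite shuttles had medians of -0.08, -0.14, -0.13 and -0.17, and 0 passed. The ones with the smallest p were SLC25A11, the oxoglutarate carrier (between -0.44 and -0.22), SLC25A12, an aspartate-glutamate carrier of the malate-aspartate shuttle (-0.42, -0.35, -0.46 and -0.59), GOT1, the cytosolic aspartate aminotransferase (between -0.29 and -0.21), and IDH1, the cytosolic isocitrate dehydrogenase (0.22, -0.14, -0.48 and -0.29). The 6 measured genes for lipoic acid, the cofactor of both dehydrogenase complexes, had medians of -0.11, -0.26, -0.19 and -0.19, and 0 passed. Among them LIAS, the lipoyl synthase, lay between -0.79 and -0.22, GLRX5 and BOLA3, which serve iron-sulphur cluster assembly, between -0.36 and 0.03 and between -0.30 and -0.22, and LIPT2, a lipoyl transferase, between 0.04 and 0.40.

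Of 17 listed regulators of PDK4 and oxidative genes 8 were measured and 0 passed, with medians of -0.09, -0.02, -0.10 and -0.22. PPARGC1A, a coactivator of mitochondrial genes, lay -0.17, -0.27, -0.53 and -0.35 from Day-0, and its relative PPARGC1B between -0.53 and -0.37. PPARA, the fatty acid sensing receptor, lay -0.06, 0.35, 0.03 and 0.24, and NR3C1, the glucocorticoid receptor, between -0.45 and -0.11. The 11 measured PPAR targets other than PDK4 had medians of -0.27, -0.32, -0.20 and -0.23, and 0 passed. The fatty acid transporter CD36 lay -0.27, -0.83, -0.44 and -0.70 from Day-0 (limma adjusted p 0.1 at Week-1 and 0.0783 for the paced mean). HADHA, the alpha subunit of the mitochondrial trifunctional protein, and MLYCD, malonyl-CoA decarboxylase, were lower by similar amounts at each stage, between -0.57 and -0.41 and between -0.58 and -0.43. FABP3, the heart fatty acid binding protein, lay -0.70, -0.32, -0.10 and -0.25.

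The genes whose signal followed the members most closely over the 15 dogs included genes of the respiratory chain and of the cycle itself. With IDH3A (1586239_s_at) they were PGK1, a glycolytic kinase (Pearson r 0.91), IMMT, a protein of the cristae (0.90), and IDH3B itself (0.89). With IDH3B (1583193_s_at) they were the complex I subunits NDUFS3 (0.94) and NDUFB10 (0.93), and PCMT1, a protein repair enzyme (0.93). With SUCLA2 they were UQCRC2 of complex III (0.93), the complex I gene NDUFA9 (0.93), and the second probe set of DLST (0.92). With PDHB they were UBE4A, a ubiquitin ligase (0.95), RGCC, a regulator of the cell cycle (0.89), and PCMTD2 (0.89). The brighter probe sets of the members other than PDK4 also followed each other, at an r of 0.58 to 0.89 between genes (0.86 between SUCLA2 and PDHB). The dimmest IDH3A probe set and the second IDH3B one did not, with an r of at most 0.36 to any probe set of another member. All of these points share group differences and array scaling.

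PDK4 stood apart from the other members, with an r between -0.45 and -0.04 to each of their 8 probe sets. The genes most like it were UST, a sulphotransferase (0.87), MED17, a Mediator subunit (0.82), and PLIN2, a coat protein of lipid droplets and a PPAR target (0.78). PLIN2 itself read 9.00, 9.70 and 9.89 in the Day-3 dogs and 8.98, 9.58 and 9.84 in the Day-0 dogs, so in both groups dog 1 was lowest for PLIN2 and for PDK4.

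Among the cell type markers 0 genes passed the threshold at any stage. The cardiomyocyte markers were lower than Day-0 in 10, 11, 11 and 10 of 11 at the 4 stages, with medians of -0.10, -0.19, -0.13 and -0.15, and their summed signal ranged between 81400 and 119000 in the Day-0 dogs, 81200 and 111000 at Day-3, 76500 and 112000 at Week-1, 76700 and 112000 at Week-2, and 76900 and 107000 at End-stage. The 7 fibroblast markers measured had medians of 0.50, 0.51, 0.40 and 0.43, and their sum ranged between 8320 and 11700 at Day-0, 9250 and 14800 at Day-3, 8910 and 16900 at Week-1, 8740 and 12000 at Week-2, and 8660 and 12700 at End-stage. The 8 macrophage markers had medians of 0.42, 0.21, 0.19 and 0.19. The 4 endothelial markers had medians of -0.14, -0.31, -0.11 and -0.04. Their sum lay between 2490 and 2680 at Day-0, 2440 and 2940 at Day-3, and 2110 and 2340 at Week-1. It was higher later, between 2690 and 3300 at Week-2 and between 2650 and 3290 at End-stage. Yet 3 of the 4 markers were lower than Day-0 at Week-2, and 2 of the 4 at End-stage. The sum weighs most on the brightest marker, VWF (mean log2 signal 10.46). The 6 smooth muscle and pericyte markers had medians of -0.10, -0.08, -0.37 and -0.55. Their sum lay between 13800 and 16400 at Day-0, 11900 and 17300 at Day-3, and 12100 and 15500 at Week-1. At Week-2 it lay between 12200 and 15400, and at End-stage between 11300 and 13700. The 2 adipocyte markers measured, ADIPOQ and LPL, had mean log2 signals of 5.43 and 9.84, so that LPL made up most of their sum. Their medians were 0.88, 1.60, 0.43 and 0.83, and at End-stage 1 of the 2 was lower than Day-0. The sum lay between 397 and 878 at Day-0, 429 and 2230 at Day-3, and 1060 and 2440 at Week-1. At Week-2 it lay between 727 and 755, and at End-stage between 1030 and 2110. The 3 lymphocyte markers had medians of 0.07, -0.17, 0.22 and -0.08, no erythroid marker was measured, and POSTN, AIF1, CD8A and LEP were under the filter on dim probe sets. In whole-wall tissue a lower share of heart muscle cells and less of a transcript in each such cell cannot be told apart, and the part of these markers in the differences of the members was not tested.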

How the data were processed

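Single-colour Affymetrix arrays were run on 45 RNA isolations of 15 dogs. Per the submitters' processing notes, the authors used GCOS 1.4 and MAS5, and what the authors deposited is a MAS5 signal intensity for every probe set on a linear scale, with each array scaled. From 23913 probe sets, 77 controls were left out. Names came from the platform annotation of 2016 (10549 probe sets with 1 symbol, 138 with several, 13149 with none), and positions from RefSeq genes of UU_Cfam_GSD_1.0, a table in which 10046 gene identifiers matched. No sequence is shown.

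The log2 of each signal was taken, and the mean over a dog's 3 arrays used. The dimmest 40% (mean signal under 22.8) were left out and 14302 probe sets tested with limma 3.58.1 in R 4.3.3: 1 mean per group over all 15 dogs, eBayes with an intensity trend, Benjamini-Hochberg adjustment and a threshold of 0.05. Arrays have no depth, and the number of dogs limits precision. The fit was tested on simulated data. The members and lists were chosen with earlier results of these data known. Members are all probe sets of the 5 symbols. Genes of the TCA and PDH lists were named whatever their result, up to 4 of each other list by smallest p, and 3 genes per member by correlation. Values of SUCLG2 and PLIN2 by dog were picked after they were seen.

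Dogs sharing a number were taken to deviate together where all 3 r were above 0.1. This held between Day-3 and Week-1 (r of 0.167, 0.296 and 0.318), Day-3 and Week-2 (0.173, 0.166 and 0.101) and Week-2 and End-stage (0.23, 0.242 and 0.102). It failed between any paced group and Day-0, Week-1 and Week-2 (lowest 0.052), Day-3 and End-stage (0.072), and Week-1 and End-stage (0.079). The highest r, 0.353, was between the dogs numbered 1 of Week-1 and End-stage, whose arrays did not group. The alternatives were a quantile and a median scaling, a signal floor, the filter on dim probe sets, probe set choice, isolations, a replicate block, single arrays with dogs as random blocks, and each dog left out.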

Additional observations from a re-analysis of the deposited data

How the results depend on the processing

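Of 100 results, 2238 values were recomputed under other settings, and 127 of these moved. A difference moved when it shifted by at least the spread between dogs, or by 0.1 for the median of all probe sets. The largest member difference between paced stages was held against the largest SD of a member. A count moved when it changed by more than 1.5 times, or from or to 0. Among the members a difference from Day-0 changed sign for PDK4 at Day-3 and Week-1 and for the dimmest IDH3A probe set, and for no other probe set under any setting run. Signs and calls among the members are listed for completeness, with nothing read from them, since the same contrasts chose the members. Here the counts and medians of the TCA and PDH lists cover all measured genes of each list, members included. A member can therefore be counted both as a member and as a TCA or PDH gene. The 0 calls among the 9 probe sets became 1 for the paced mean under quantile normalisation (1 TCA gene), where 68 of all probe sets passed. With a replicate block of the dog number, a pairing not borne out between paced and Day-0 dogs, they became 1 at Week-2 (1 PDH gene, 88 of all probe sets) and 4 for the paced mean (4 TCA and 2 PDH genes, 219 of all). The block changed no other call of members or of these lists. On the 45 single arrays, with dogs as random blocks, members, TCA genes and PDH genes past the threshold numbered 5, 2 and 1 at Day-3, 3, 3 and 1 at Week-1, 3, 2 and 1 at Week-2, 3, 2 and 2 at End-stage, and 6, 7 and 4 for the paced mean, where 273, 377, 483, 322 and 701 of all probe sets passed in the same order. Leaving out 1 dog at a time gave 0 to 2 members (2 without Day-3 dog 1, 1 without End-stage dog 3, where 111 and 26 of all probe sets passed), 0 to 1 TCA genes and 0 to 1 PDH genes for the paced mean. It put the PDH median between -0.3082 and -0.1815 at Week-2 and between -0.3471 and -0.238 at End-stage. The cause was not tested. Over all probe sets the counts past the threshold ran between 0 and 273 at Day-3, 0 and 377 at Week-1, 2 and 483 at Week-2, 0 and 322 at End-stage and 6 and 701 for the paced mean, the highest each time with random blocks. Leaving out 1 dog gave 0 to 23 at Day-3 and 1 to 111 for the paced mean, both highest without Day-3 dog 1, 0 at Week-1 without any 1 dog, 0 to 20 at Week-2 and 0 to 6 at End-stage, against 0, 43, 4, 12 and 2 in the order named. Between consecutive paced groups they ran between 0 and 30, and for the F test between 0 and 55. Between consecutive paced groups members gave 0 calls under every setting. Median centring shifted the median of all probe sets to -0.1056 for Week-2 against Week-1 and to 0.1234 for End-stage against Week-2. With 3 dogs a group, differences near the SD between dogs could not be resolved, and precision is limited by the number of dogs.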

Other observations

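Day-3 dog 1, the dog with the lowest PDK4 signal, was at least 1 log2 unit below both other Day-3 dogs in 225 of the 14302 probe sets tested (1.57%), and at least 1 above both in 86 (0.601%). It was at least 2 below both in 27 (0.189%), PDK4 among them. LPL, the lipase that frees fatty acids from circulating triglyceride and that is also found in fat cells, read 8.58, 10.43 and 10.51 in Day-3 dogs 1, 2 and 3 with one probe set and 7.01, 8.93 and 9.06 with another. FOS, an immediate early gene, read 3.86, 8.60 and 7.36 in the same dogs. Of all tested probe sets, dog 1 lay below both other Day-3 dogs in 31.4% and above both in 35.4%. The counts below and above were 5 and 1 of the 11 PPAR targets measured, 4 and 6 of 14 TCA cycle genes, 5 and 4 of 10 PDH genes, 2 and 5 of 11 anaplerosis and shuttle genes, 0 and 4 of 6 lipoic acid genes, and 2 and 4 of 8 regulators. These genes were picked after their values were seen, and the comparison is of single dogs.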
